A study of Mus musculus with 2 samples.

Results

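Divergent promoters are stretches of DNA from which a pair of genes is transcribed in opposite directions, away from each other. The open chromatin described here lies at such promoters in the right cerebral cortex. Gene pairs were taken from the GENCODE M21 annotation: a protein-coding gene on the minus strand and another on the plus strand, with the minus-strand start upstream, the starts at most 1000 bp apart and the gene bodies not overlapping. A peak belonged to the set if it was in the stricter peak set of replicate 1, overlapped a strict peak of replicate 2 by at least 1 base, and lay within 200 bp of the interval between the 2 starts. This gave 828 of the 91818 strict peaks of replicate 1 (0.902%), and 1.36% of the 60789 strict peaks shared by both libraries. The 828 peaks are called member peaks below.

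Openness was read by DNase-seq in 2 libraries: DNase I cuts accessible chromatin, and a peak marks a site of frequent cuts. The tissue, right cerebral cortex, was taken at 2 months of age from males of the hybrid strain B6CASTF1/J (a C57BL/6J by CAST/EiJ cross), and the labels name no treatment. Replicate 1 is labelled animal 5 and replicate 2 animal 6, under the same donor record, so their being separate mice rests on the animal numbers. There was 1 group, hence no contrast and no test; values are given per library or as mean ± SD over the 2 libraries, and exact 95% binomial intervals cover counting error only. The reads of a hybrid were placed on mm10, which is the C57BL/6J sequence. In bulk tissue, fewer cells with an open site and a less open site in each cell cannot be told apart.

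Head-to-head gene pairs are common in mammalian genomes and are known for housekeeping genes, among them genes of DNA repair, mitochondria and the replication-dependent histones. Their shared promoters usually lie in CpG islands, lack a TATA box and carry binding sites for factors such as NRF1, ETS proteins and NFY. Nucleosome-free DNA between the starts can serve both directions of transcription, with the first nucleosome of each gene on either side.

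The sequence between the annotated starts is shown for 10 pairs: the pairs with the 3 tallest member peaks, classic divergent pairs, and pairs with no peak. All are the plus strand of mm10 (GRCm38), written 5′ to 3′ from the base after the minus-strand start to the base before the plus-strand start. Capitals mark exact matches, on either strand, to the 13 short motifs described further on or to a longer form of the ZNF143 site that was added after the Chchd4/Tmem43 interval had been read.

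The first 3 are the intervals under the tallest member peaks.
Hjurp/Trpm8, chr1:88277634-88277660: ggggagggacgagagggagggtccgcc
Cdc27/Myl4, chr11:104550621-104550662: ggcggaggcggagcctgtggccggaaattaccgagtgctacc
Chchd4/Tmem43, chr6:91473547-91473702: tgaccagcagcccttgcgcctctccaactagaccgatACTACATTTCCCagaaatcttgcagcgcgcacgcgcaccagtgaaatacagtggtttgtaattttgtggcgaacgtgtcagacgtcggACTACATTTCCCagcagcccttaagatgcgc

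Next are classic pairs with a member peak.
Brca1/Nbr1, chr11:101551956-101552148: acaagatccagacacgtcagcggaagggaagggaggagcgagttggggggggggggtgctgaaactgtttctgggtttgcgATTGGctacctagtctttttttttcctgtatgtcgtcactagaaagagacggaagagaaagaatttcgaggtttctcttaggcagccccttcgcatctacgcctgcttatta
Psmb1/Tbp, chr17:15499752-15499887: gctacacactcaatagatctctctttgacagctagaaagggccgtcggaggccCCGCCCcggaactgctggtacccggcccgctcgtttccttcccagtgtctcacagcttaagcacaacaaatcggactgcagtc
Tsc2/Nthl1, chr17:24632631-24632679: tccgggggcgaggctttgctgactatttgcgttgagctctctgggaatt
Uqcrq/Gdf9, chr11:53430832-53431022: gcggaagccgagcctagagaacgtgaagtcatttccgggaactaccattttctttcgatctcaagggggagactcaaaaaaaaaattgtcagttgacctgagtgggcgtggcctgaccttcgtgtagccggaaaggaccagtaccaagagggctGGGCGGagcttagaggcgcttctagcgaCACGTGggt

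The last 3 had no peak in either peak set of either library.
Col4a4/Col4a3, chr1:82586850-82586920: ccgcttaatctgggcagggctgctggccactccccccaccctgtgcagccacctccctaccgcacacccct
Best1/Rab3il1, chr19:10001634-10001668: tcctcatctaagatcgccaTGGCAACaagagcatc
Rnf151/Rps2, chr17:24718064-24718115: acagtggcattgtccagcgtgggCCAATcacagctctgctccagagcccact

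Only intervals of 20 to 300 bases with no annotated transcript in them are shown, so their shortness was set by this choice. They differ in CpG content, though counts over such short stretches are small. The 27 bases between Hjurp and Trpm8 hold 2 CpG dinucleotides. The 42 bases between Cdc27 and Myl4 hold 4 CpG dinucleotides, and the 191 bases between Uqcrq and Gdf9 hold 12. The 71 bases between Col4a4 and Col4a3 hold 2, and the intervals of Best1/Rab3il1 and Rnf151/Rps2 hold 1 each. Both copies of ACTACATTTCCC between Chchd4 and Tmem43, at bases 38 and 126 of the interval, were overlapped by a deposited footprint in both libraries. A footprint is a short stretch inside open DNA that is cut less than its surroundings. The GGGCGG matches of Psmb1/Tbp and Uqcrq/Gdf9 and the CACGTG of Uqcrq/Gdf9 were also footprinted in both libraries. The NFY matches of Brca1/Nbr1 and Rnf151/Rps2 and the RFX match of Best1/Rab3il1 were footprinted in neither.

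The annotation held 754 such pairs with 1487 genes, 6.78% of its 21938 protein-coding genes. The starts were a median of 129.5 bp apart (quartiles 67 and 240 bp, range 1 to 987 bp), and 82.0% of the pairs had them under 300 bp apart. A member peak was found at 696 pairs (92.3%, interval 90.2 to 94.1%) and at none of the other 58. Of the 696, 557 had 1 member peak, 128 had 2, 9 had 3 and 2 had 4, and 20 peaks belonged to more than 1 pair because a gene took part in both. Each autosome carried pairs, from 19.5 per 1000 coding genes on chromosome 18 to 50 on chromosome 8, beside 21.1 on X.

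Starts in pairs were open more often than the starts of single genes, here coding genes with no other coding start within 1000 bp. Within 200 bp of its own start, 89.6% of 1487 genes in pairs had a shared strict peak (interval 87.9 to 91.1%), against 43.7% of 19174 single genes (43.0 to 44.4%). Part of this gap went with base composition: 83.9% of pair starts and 43.3% of single-gene starts were CpG-rich, meaning a GC content of at least 50% and at least 0.6 of the CpG expected from the C and G content. Among CpG-rich starts the shares were 95.6% of 1248 and 80.7% of 8311. Among the remaining starts they were 58.2% of 239 and 15.4% of 10863. Where the partner was a long noncoding RNA instead of a second coding gene, 76.7% of 754 divergent intervals had a shared peak. This share is counted per interval and not per start, and its counterpart for coding pairs is 92.3%.

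Member peaks were taller than single-gene promoter peaks in both libraries. Peak height is the signal deposited by the authors, with no stated scale, so it is compared only within a library. In replicate 1 the median height was 4.11 for the 828 member peaks and 2.88 for 9257 single-gene peaks. In replicate 2 it was 2.86 and 1.94. The ratio was 1.45 ± 0.0305 (SD, n = 2), larger than its spread between the libraries. Against the 7664 single-gene peaks that were CpG-rich it was 1.33 ± 0.0408, and against 680 peaks at promoters shared by a coding and a noncoding gene, a class that overlaps the single-gene one, 1.24 ± 0.0196. Peaks over 1000 bp from any transcript start had medians of 1.05 and 0.837. Among all shared peaks, 57.4% and 62.3% of member peaks fell into the tallest 10%, against 35.7% and 37.2% of single-gene peaks.

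**Figure D1:**
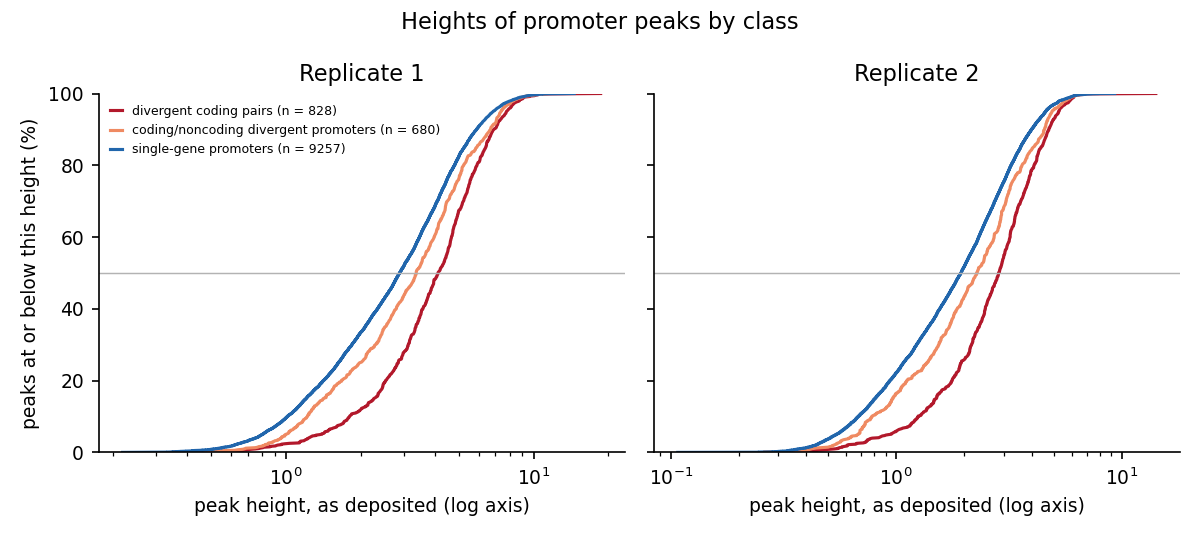
Share of peaks (y axis, %) at or below each deposited peak height (x axis, log scale) in replicate 1 (left) and replicate 2 (right), for member peaks, peaks at coding/noncoding divergent promoters and single-gene promoter peaks. The grey line marks the median, which is 4.11, 3.35 and 2.88 in replicate 1 and 2.86, 2.28 and 1.94 in replicate 2, in that order.

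Ranked by the mean height of both libraries, the tallest member peak was that of Hjurp/Trpm8, whose starts are 28 bp apart. Hjurp places the centromere histone CENP-A, and Trpm8 is the cold-sensing ion channel. The peak (chr1:88277541-88277760, mm10) had a height of 18.6 in replicate 1 and 14.2 in replicate 2, which ranked 8 and 9 among the 60789 shared peaks of the genome. It covered both starts and held 6 and 5 footprints. The second tallest, Cdc27/Myl4, reached 11.5 and 6.87 over starts 43 bp apart. Cdc27 is a subunit of the anaphase-promoting complex and Myl4 a myosin light chain of heart and embryonic muscle. Hjurp/Trpm8 was the tallest member in each library; Cdc27/Myl4 came next in replicate 1 and after Nop14/Grk4 in replicate 2.

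The other pairs among the 10 tallest had heights of 9.04 to 10.5 in replicate 1 and of 5.61 to 6.91 in replicate 2. Chchd4/Tmem43 joins a protein import factor of the mitochondrial intermembrane space to an inner nuclear membrane protein, with heights of 10.1 and 6.504. Deaf1/Tmem80, with the transcription factor Deaf1, had 10.5 and 5.81. Nop14/Grk4 pairs a nucleolar factor of small-subunit ribosome assembly with a G-protein-coupled receptor kinase, at 9.04 and 6.91. Cep57/Fam76b, with a centrosome protein, had 9.26 and 6.14. Apaf1/Ikbip, with the core protein of the apoptosome, had 9.09 and 6.14. Fbh1/Ankrd16, Klhl28/Togaram1 and Rita1/Ddx54 complete the 10. Their peaks lay differently: that of Klhl28/Togaram1 sat between the starts without reaching either, and the tallest peak of Rita1/Ddx54 lay inside Ddx54, beyond its start. The replicate 2 partner of this Rita1/Ddx54 peak, with 5.61, lay over 200 bp beyond the Ddx54 start. The tallest replicate 2 peak within reach of that pair had 4.55.

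At the other end, Trpc5/Rtl4 on X had the lowest member peak, 0.350 in replicate 1 and 0.299 in replicate 2. Trpc5 is a cation channel of neurons, and its start lies 727 bp from that of Rtl4. Lrrc63/Lcp1, with the leukocyte actin-bundling protein Lcp1, had 0.807 and 0.430. Ptchd1/Gm15155, Spata1/Gng5 and Obsl1/Inha were the other pairs with low values, between 0.776 and 0.814 in replicate 1 and between 0.453 and 0.607 in replicate 2. For Lrrc63/Lcp1, Ptchd1/Gm15155 and Spata1/Gng5 the overlapping replicate 2 peak was only 61, 62 and 97 bp wide.

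Both libraries ranked the member peaks much alike. Across the 828 peaks, Spearman's rho of the heights was 0.943 and Pearson's r of log10 height 0.952, a description over peaks that share the same 2 libraries. The median ratio of replicate 1 to replicate 2 was 1.47, and 2 members lay over 2-fold from it. Of the 880 strict peaks of replicate 1 at pairs, 94.1% overlapped a strict peak of replicate 2, and of the 829 of replicate 2, 97.2% overlapped one of replicate 1. At single-gene promoters the shares were 86.7% and 96.6%, and for all strict peaks 66.2% and 80.8%. The peaks without a counterpart were low, with a median height of 1.13 for 52 peaks in replicate 1 and 0.722 for 23 in replicate 2. Some deposited peaks of a library overlap each other: this was so for 36 of the 828 members, and 52 members shared a replicate 2 partner with another member, so that heights of neighbours are not always separate measurements.

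**Figure D2:**
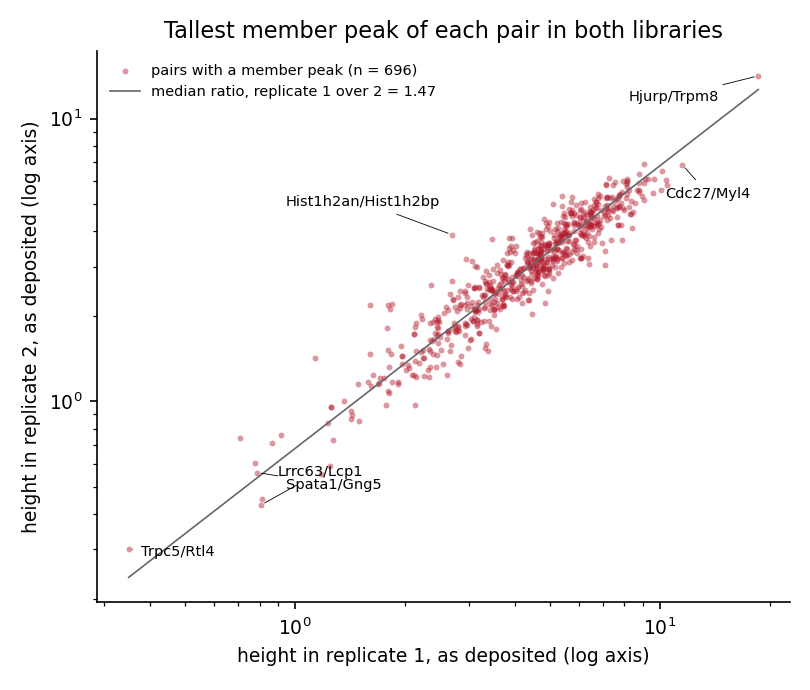
Height of the tallest member peak of each of the 696 pairs in replicate 1 (x axis) and replicate 2 (y axis), as deposited, both on log axes. The line is the median ratio over these pairs, 1.47; Hjurp/Trpm8 stands apart at the top, Trpc5/Rtl4 at the bottom, and Hist1h2an/Hist1h2bp lies above the line.

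Of 32 divergent pairs known from the literature, 10 met the rule, 13 were left out because their annotated gene bodies overlap at the starts, and the rest had starts too far apart, another orientation or a symbol not among the coding genes. A member peak was present at 8 of the 10, beside 92.3% of all pairs. Pdcd10/Serpini1 had the tallest of these in replicate 1, 8.57, and 5.05 in replicate 2. Serpini1 encodes neuroserpin, a protease inhibitor of neurons, and Pdcd10 is a vascular malformation gene. In replicate 1 the peak covered the start of Pdcd10, and no member peak covered that of Serpini1. Its replicate 2 partner was 80 bp wide. Uqcrq/Gdf9, a subunit of respiratory complex III facing an oocyte growth factor, had 8.405 and 4.12. Mcm4/Prkdc, a replicative helicase subunit facing the catalytic subunit of DNA-dependent protein kinase, had 8.10 and 5.41, the tallest of these in replicate 2. Their starts are 691, 192 and 466 bp apart.

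Psmb1/Tbp, a proteasome subunit and the TATA-binding protein, had 7.41 and 4.76. Atm/Npat, the DNA damage kinase and an activator of histone genes, had 6.42 and 4.71. Brca1/Nbr1, the repair gene and an autophagy receptor, had 4.91 and 3.18. The Brca1/Nbr1 peak (chr11:101552081-101552440) covered the start of Nbr1 and not that of Brca1. In replicate 1 the peaks of Uqcrq/Gdf9, Psmb1/Tbp and Atm/Npat likewise covered only the starts of Gdf9, Tbp and Npat. Mrpl40/Hira, a mitochondrial ribosomal protein and a histone chaperone, had 3 member peaks, the tallest at 3.62 and 2.40. Tsc2/Nthl1, the mTORC1 inhibitor tuberin and a base excision repair glycosylase, had 2.93 and 1.84, below the median of member peaks in both libraries. The remaining 2, Col4a4/Col4a3 of basement membrane collagen and Hist1h2ba/Hist1h2aa, had no peak in either library.

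How the peaks covered the starts changed with spacing. Of 311 pairs with starts under 100 bp apart, 273 had 1 peak over both. This was so for 115 of 207 from 100 to under 200 bp, 23 of 100 from 200 to under 300 bp, 10 of 66 from 300 to under 500 bp and 0 of 70 from 500 to 1000 bp. Each start had its own peak at 0, 1, 7, 13 and 18 pairs in these groups. At least 2 member peaks were found at 9.80% of the closest pairs that had any and at 53.4% of the widest. These counts shift with spacing in part by construction. Only a peak wider than the spacing can cover both starts, and member peaks had median widths of 240 bp and 260 bp. The stretch searched for peaks also grows with the spacing. The share of pairs with a member peak was 95.2%, 89.9%, 93.0%, 95.5% and 82.9%; the interval of the last group, 72.0 to 90.8%, overlaps those of the 3 groups from 100 to under 500 bp and not that of the closest group.

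**Figure D3:**
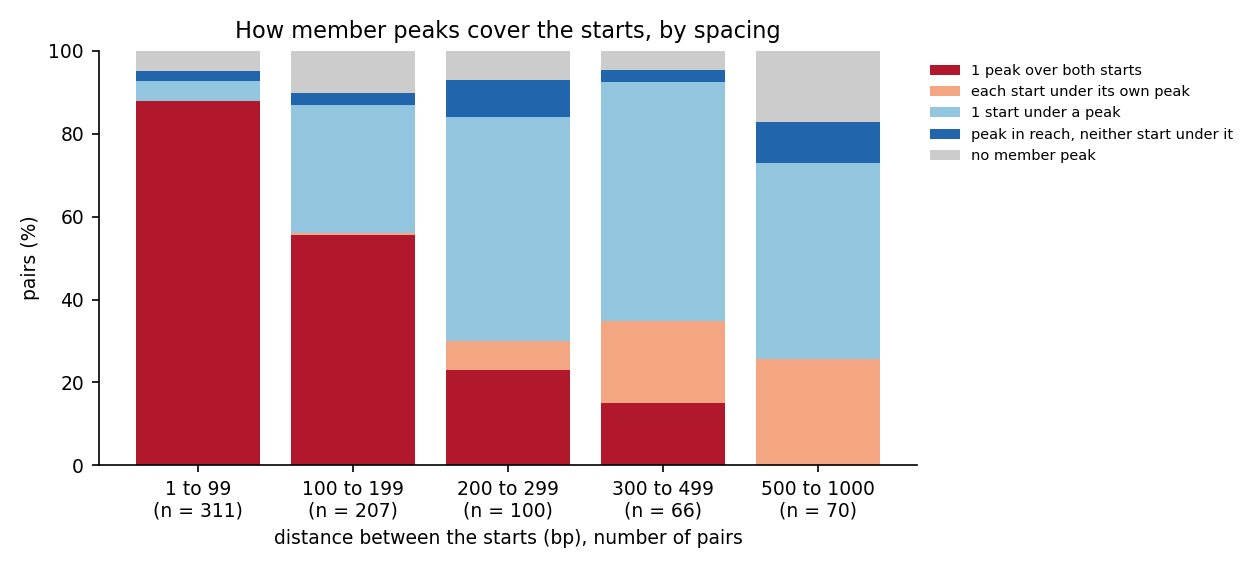
Share of pairs (y axis, %) by how member peaks in replicate 1 coordinates cover the annotated starts, for pairs grouped by the distance between the starts (x axis, bp, with the number of pairs). One peak over both starts takes 273 of 311 pairs in the closest group and 0 of 70 in the widest.

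The tallest peak lay farther from the middle of the interval, in bp, where the starts were farther apart. Its centre was a median of 23.3 bp (replicate 1) and 26.8 bp (replicate 2) from the middle for starts under 100 bp apart, and 300.3 bp and 267.8 bp for starts 500 bp or more apart. This is in part by construction, as a peak at a start lies farther from the middle when the spacing is wide. The centre lay between the starts at 49.7% and 45.3% of the closest pairs with a member peak. At the widest it did so at 75.9% and 79.3%, a share that also depends on the spacing. Cep57/Fam76b, at 609 bp, and Tmem126b/Dlg2, at 671 bp, each had separate peaks at both starts. At Tmem126b/Dlg2 the peak by Tmem126b, a mitochondrial complex I assembly factor, had 6.61 and 4.45. The peaks by Dlg2, a scaffold of the postsynaptic density, had 1.28 and 1.32 in replicate 1 and a single partner of 0.998 in replicate 2. Cbx5/Hnrnpa1, heterochromatin protein 1 alpha and an RNA-binding protein 616 bp apart, had 3 peaks of 3.57 to 6.82 in replicate 1 and 2.61 to 4.09 in replicate 2.

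The height of the tallest peak per pair changed little with spacing. More of the widely spaced pairs had 2 or more peaks to take the tallest from, and the heights were not corrected for this. The tallest peak per pair had medians of 4.14, 4.72, 4.87, 5.04 and 4.50 in replicate 1 and 2.80, 3.34, 3.57, 3.21 and 2.84 in replicate 2, from the closest to the widest group. Spearman's rho of spacing and height over the 696 pairs was 0.12 and 0.17, a description over pairs of the same libraries. The pairs just inside 1000 bp, Zfyve26/Rad51b, Asphd1/Sez6l2 and Btf3l4/Txndc12 at 978, 981 and 987 bp, had tallest peaks of 4.95, 2.18 and 2.85 in replicate 1. Just outside, Gpr108/Trip10 at 1009 bp and Sgsm2/Tsr1 at 1011 bp had 3.50 and 3.07, and Serpina7/4930513O06Rik at 1007 bp had none. Median heights in replicate 1 were 4.36 for the 725 member peaks that touch the interval, 2.40 for the 103 that lie up to 200 bp from it, and 1.47 for 93 shared peaks over 200 and up to 400 bp away. In replicate 2 they were 2.97, 1.59 and 1.01. The 3 peaks nearest to the 200 bp reach went against this order. Just inside, at 196 bp or more, those of Cbx5/Hnrnpa1, Gm27029/Rundc1 and Pusl1/Acap3 had 4.49, 0.958 and 1.40 in replicate 1 and 2.61, 0.660 and 1.31 in replicate 2. Just outside, at 202, 204 and 207 bp, those of Fbxo44/Fbxo2, Hps5/Gtf2h1 and Mrps18b/Ppp1r10 were taller, 6.48, 5.33 and 6.63 in replicate 1 and 4.13, 3.47 and 4.38 in replicate 2.

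The bases listed by the authors under a false discovery rate of 0.05 show how far openness reached around the starts. At the start itself, 98.7% and 98.0% of 1392 starts in pairs with a member peak were listed, and 99.01% and 97.5% of 8377 single-gene starts with a shared peak. Inside the gene the share fell to 50% of its value at the start after 590 bp and 512 bp in pairs, and after 756 bp and 583 bp in single genes. Upstream, which for a pair runs into the other gene, it did so after 750 bp and 662 bp in pairs and 455 bp and 395 bp in single genes. At 500 bp inside the gene, 62.8% and 51.1% of pair starts were listed, against 74.6% and 56.97% of single-gene starts. Openness in pairs thus reached farther upstream and less far into each gene.

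**Figure D4:**
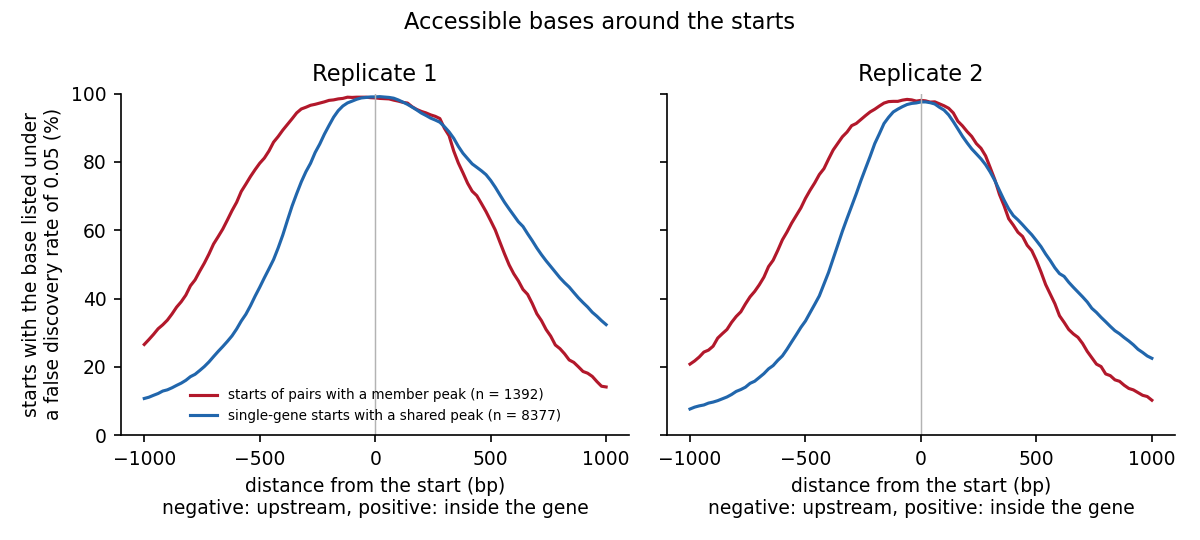
Share of starts (y axis, %) whose base at each distance (x axis, bp; negative is upstream, positive inside the gene) is listed under a false discovery rate of 0.05, in replicate 1 (left) and replicate 2 (right). At 500 bp upstream the starts of pairs with a member peak are at 79.6% and 69.3%, and single-gene starts with a shared peak at 43.3% and 33.4%; at 500 bp inside the gene the order is turned round.

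Over all heights, member peaks were no wider than single-gene peaks beyond the difference between libraries. The median width was 240 bp and 260 bp for members and 260 bp and 240 bp for single-gene peaks. Over 300 bp wide were 25.4% and 28.3% of members (26.8 ± 2.05%, SD, n = 2) and 29.1% and 25.6% of single-gene peaks. Among the widest was that of Asphd1/Sez6l2, 740 bp and 880 bp; Sez6l2 is a seizure-related membrane protein of neurons. Ppp1r3d/Fam217b had 640 bp and 698 bp. The histone pair Hist2h2ac/Hist2h2be had 760 bp and 540 bp, with 19 and 11 footprints, the most when both libraries are summed. Pdap1/Bud31 followed with 14 and 11, Cdca2/Kctd9 with 13 and 11, and L3hypdh/Jkamp and Mrpl40/Hira with 12 and 10 each. The widest member peak in replicate 1 was a low one at Eef1d/Tigd5, 920 bp wide with a height of 1.03, whose replicate 2 partner was 333 bp wide.

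Nearly all member peaks held a footprint, 98.2% in replicate 1 and 95.9% in replicate 2, beside 97.9% and 94.6% of single-gene peaks. Their footprints were denser, 19.6 and 16.5 per kb against 17.6 and 14.5. Density moved with height, however. Within quartiles of member height the 2 classes were close: 21.1 against 21.6 per kb in the tallest quartile of replicate 1 and 20.01 against 19.5 in that of replicate 2, and 14.2 against 14.6 and 10.6 against 11.1 in the lowest. The 15 and 34 members without a footprint had median heights of 0.958 and 0.818.

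Member peaks were rich in CpG, as were other promoter peaks. The median CpG observed over expected was 0.869 (quartiles 0.744 and 0.996), against 0.826 for single-gene peaks and 0.264 for peaks over 1000 bp from a start. The median GC content was 63.2% against 65.0% for single-gene peaks. Members thus held more CpG relative to that expected from their C and G content, which does not mean more CpG per base. CpG-rich were 88.9% of members and 82.8% of single-gene peaks. Peaks at coding/noncoding divergent promoters were close to members, with a median ratio of 0.875 and 87.2% CpG-rich. By spacing, the median CpG ratio of the tallest peak fell by group from 0.930 under 100 bp to 0.792 at 500 bp or more.

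Several motifs were found in a larger share of member peaks than of single-gene peaks. Windows of 200 bp on the peak centre were searched on both strands for 13 exact letter strings, and a match is a description of the sequence, not proof of binding. The ETS core CCGGAAG was in 22.2% of member windows (interval 19.4 to 25.2%) and in 14.9% of single-gene windows (14.2 to 15.6%). The CCAAT box of NFY was in 38.6% (35.3 to 42.1%) and 31.4% (30.4 to 32.3%). The ZBTB33 string TCTCGCGA was in 4.23% (2.96 to 5.83%) and 1.96% (1.68 to 2.26%), and in 0.0310% of windows over 1000 bp from a start. YY1, AAGATGG, was in 7.97% (6.22 to 10.0%) and 5.24% (4.79 to 5.71%), and ZNF143, ACTACAA, in 5.43% (3.99 to 7.20%) and 3.23% (2.88 to 3.61%). For these 5 the intervals of the member and single-gene classes did not overlap. At coding/noncoding divergent promoters, for which no intervals were computed, ETS was in 18.4% of windows and NFY in 32.6%. ZBTB33 was in 2.06%, YY1 in 4.41% and ZNF143 in 2.06% there. The ETS share of that class thus lay between those of single-gene and member windows.

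For the other 8 the intervals overlapped. NRF1, GCGCATGC, was in 6.40% and 5.20%. The SP string GGGCGG was in 59.9% and 60.3%, the CRE TGACGTCA in 3.74% of both, the E-box CACGTG in 9.78% and 8.66%, and RFX, GTTGCCA, in 3.99% and 3.31%. CTCF, AGGGGGC, was in 11.2% and 13.4%, TATAAA in 2.05% and 2.69%, and AP1, TGANTCA, in 1.81% and 2.53%. In windows over 1000 bp from a start, TATAAA was in 8.17% and AP1 in 14.4%. The longer ZNF143 string was in 6.28% of member windows, 3.85% of single-gene windows and 0.173% of those far from a start; the tallest members with it were Chchd4/Tmem43, Calr3/1700030K09Rik and Nop14/Grk4.

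**Figure D5:**
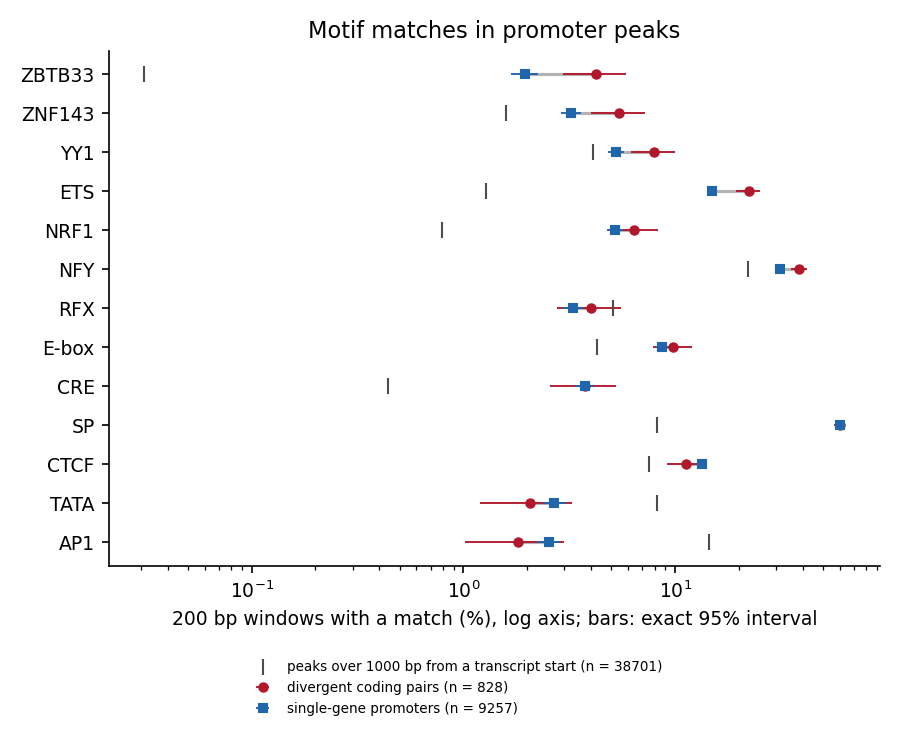
Share of 200 bp windows with at least 1 match (x axis, %, log scale) for each of 13 motifs (y axis, ordered by the ratio of member to single-gene share). Circles are member peaks, squares single-gene promoter peaks, both with exact 95% intervals, and ticks peaks over 1000 bp from a transcript start. ZBTB33, ZNF143, YY1, ETS and NFY are the motifs with separate intervals.

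The density of matches between the starts differed by motif. In intervals of 21 to 200 bp, CCAAT occurred 5.00 times per kb, against 3.10 in the 100 bp upstream of single genes. The ETS string occurred 1.60 against 0.877 times per kb, and ZBTB33 0.511 against 0.119. SP was nearer to equal, 8.06 against 7.41. Less dense between the starts were CTCF, 0.860 against 0.951, RFX, 0.139 against 0.197, TATAAA, 0.116 against 0.207, and AP1, 0.0232 against 0.124, the last 3 on 6, 5 and 1 matches. In pairs with starts up to 300 bp apart, CCAAT occurred 5.28 times per kb between the starts and 0.912 times in the first 200 bp inside the genes. YY1 had the opposite order, 0.106 per kb between the starts and 0.404 inside the genes. Members with CCAAT had median heights of 4.85 and 3.41, those without 3.65 and 2.46. The same was seen in single-gene peaks, 3.84 and 2.60 with and 2.49 and 1.65 without.

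The share of matches overlapped by a footprint differed by motif. All 32 CRE matches in member windows were overlapped in both libraries, as were 95.5% and 89.8% of 88 NRF1 matches. The shares were 83.8% and 69.7% for CTCF, 81.1% and 64.8% for SP, 75.9% and 65.5% for ZBTB33, and 64.7% and 52.7% for ETS. They were 56.9% and 51.0% for ZNF143, 51.4% and 62.9% for RFX, 56.99% and 39.8% for the E-box, 47.2% and 36.1% for YY1, and 46.7% and 40% for AP1. TATAAA had 41.2% and 35.3%, and CCAAT had the lowest shares, 37.3% and 27.4%. For comparison, 45.9% and 35.1% of all 7-letter positions in these windows touched a footprint. The strings have 5 to 8 letters, and a longer one touches a footprint more readily, so this level is exact only for those of 7.

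Families differed in how many of their genes stand in a divergent pair; this is a count from the annotation and no test was made. Replication-dependent histones had 27 of 67 genes in pairs (40.3%), RNA polymerase subunits 9 of 28, chaperones 12 of 43, and a DNA repair and replication list 31 of 114 (27.2%). Mitochondrial ribosomal proteins had 18 of 78, oxidative phosphorylation subunits 19 of 85 and cilium genes 21 of 110. Against 6.78% of all coding genes, cytosolic ribosomal proteins had 8 of 82, numbered zinc finger proteins 20 of 394, solute carriers 17 of 342 and a list of synaptic genes 2 of 64. Olfactory receptors had 0 of 1135. A member peak was present for 1372 of all 1487 genes in pairs.

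The shares of family genes with a member peak can be read against 92.3% of all genes in pairs. All genes in pairs had one among mitochondrial ribosomal proteins (18), cilium genes (21), chaperones (12), RNA polymerase subunits (9), proteasome subunits (8) and aminoacyl-tRNA synthetases (5). It was 18 of 19 oxidative phosphorylation subunits, 29 of 31 DNA repair and replication genes, 16 of 17 solute carriers, 18 of 20 zinc finger proteins, 7 of 8 cytosolic ribosomal proteins, 21 of 27 histones and 0 of 2 collagens. Without one were, among others, Ndufa5/Asb15, Pinlyp/Xrcc1, Grik5/Zfp574, Zfp558/Mbd3l1, Slc27a5/Trim28 and Rnf151/Rps2.

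DNA repair and replication genes had the highest medians among families with over 2 genes, 5.59 and 3.77 over 29 genes, against 4.56 and 3.08 over all genes in pairs. The values of a named pair are those of its tallest member peak, which need not cover the start of the family gene. Lig4/Abhd13, with the ligase of end joining, had 7.23 and 4.71 over starts 21 bp apart. Among mitochondrial ribosomal proteins, Klc4/Mrpl2 had 8.30 and 4.62, Mrpl49/Fau 7.60 and 5.19, and Ptcd2/Mrps27 6.53 and 4.08. Wdr4/Ndufv3, with a subunit of respiratory complex I, had 7.07 and 4.91. Among genes of intraflagellar transport, Cramp1l/Ift140 had 7.90 and 5.51 and Tnfaip1/Ift20 8.07 and 5.24. Among chaperones, Tecr/Dnajb1 had 7.54 and 5.12, Hsp90b1/Ttc41 7.14 and 5.24, and Dnajb4/Fubp1 6.25 and 5.08.

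Among the cytosolic ribosomal proteins, Med22/Rpl7a had 8.42 and 4.67, Rpl9/Lias 7.61 and 4.83, and Rps28/Ndufa7, whose starts are 10 bp apart, 6.45 and 4.15. Proteasome subunits include Ftsj3/Psmc5, 7.86 and 3.73, and Mrpl32/Psma2, 3.94 and 3.79, which pairs the proteasome with the mitochondrial ribosome. The tRNA synthetases include Mrps12/Sars2, 6.21 and 3.95, and S100pbp/Yars, 4.59985 and 2.95. RNA polymerase subunits include Noa1/Polr2b, 6.10 and 5.02, Dzank1/Polr3f, 6.75 and 4.25, and Lnx2/Polr1d, 5.59 and 3.89. Zinc finger genes include Zfp654/Cggbp1, 8.77 and 5.60, Zfp277/Dock4, 6.85 and 5.34, and Zfp142/Bcs1l, 6.21 and 4.51. Among solute carriers, Cdk5/Slc4a2, with the neuronal kinase Cdk5, had 8.15 and 5.96, and Fbxl6/Slc52a2 5.501 and 3.29. Fkbp15/Slc31a1, with the copper importer Slc31a1, had 5.14 and 3.48. In replicate 1 the Cdk5/Slc4a2 peak covered the start of Slc4a2 and not that of Cdk5. The Fkbp15/Slc31a1 peak covered the start of Fkbp15 and not that of Slc31a1. The synaptic genes in pairs were Dlg2, above, and Nlgn2, a neuroligin of inhibitory synapses, whose pair Nlgn2/Tmem256 had 5.29 and 3.67. In replicate 1 that peak covered the start of Tmem256, and no member peak covered that of Nlgn2.

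Histone pairs stood apart in the ratio of the libraries, an observation made after the values were seen. Of 13 pairs of 2 replication-dependent histone genes, 10 had a member peak, 11 peaks in all. Hist1h2bf/Hist1h2ad had 4.66 in replicate 1 and 3.33 in replicate 2, and Hist1h2ag/Hist1h2bj 4.02 and 3.54. Hist1h2an/Hist1h2bp had 2.70 and 3.89, Hist1h2ae/Hist1h2bg 1.60 and 2.19, and Hist1h2ac/Hist1h2bc 2.37 and 2.57. As the scale of each library is not known, the ratio of replicate 1 to replicate 2 can be read only against that of other members. Its median was 0.976 for histone pairs, with a range of 0.694 to 1.40, and 1.47 for the other 817 members. Relative to other members, histone pairs were thus lower in replicate 1. The replicate 1 peaks at Hist1h2an/Hist1h2bp, Hist1h2ak/Hist1h2bn and Hist1h2ae/Hist1h2bg were narrow, 80, 100 and 152 bp, and those of replicate 2 were 280, 300 and 240 bp.

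No source used here says how the authors treated reads that fit several places. Of the histone pairs without a peak, Hist1h2bq/Hist1h2ao and Hist1h2ap/Hist1h2br are open to this: the 300 bp on the middle of each interval has a further copy of 100% identity in the genome, and neither had a listed base between the starts. None of the 10 histone pairs with a peak had a copy of at least 95% identity over this stretch. Over all pairs, such a copy, over at least 90% of these 300 bp, was found for 4 of the 58 pairs without a member peak and 4 of the 696 with one. The others without a peak were Dmrtc1a/1700011M02Rik and Gm9112/Dmrtc1b on X, each with a further copy of 98.3% identity. Those with a peak were Zfp942/Zfp943, 2.26 and 1.43, Zfp944/Zfp758, 1.18 and 0.553, Mfsd8/Abhd18, 3.90 and 3.12, and 2700097O09Rik/Srp54a, 3.91 and 2.49. The part of reads that fit several places in this was not tested.

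Around the starts used here, the 58 pairs without a member peak were poor in CpG. Each start is the outermost annotated one of its gene, and whether another start of these genes was open was not examined. In the 300 bp on the middle of the interval the median CpG observed over expected was 0.364, against 0.869 for pairs with a member peak, and 31.0% against 84.6% were CpG-rich. At 41 of them no peak of either set was found in either library. At 7 a peak of the larger, less strict set was found in 1 library and at 2 in both. The others had a strict peak in 1 library, 7 in replicate 1 and 1 in replicate 2. A base listed under the false discovery rate of 0.05 lay between the starts at 16 of the 58 in replicate 1 and 8 in replicate 2.

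Of the 10 closest pairs without a strict peak in either library, 8 had no peak of either set and no listed base between the starts. These were Best1/Rab3il1, Rnf151/Rps2, 4930430F08Rik/1700017N19Rik, Col4a4/Col4a3, Dgcr2/Tssk2, Il11/Tmem190, Ccnt1/4930415O20Rik and Patl2/Terb2, with starts 36 to 83 bp apart. Best1 is the chloride channel of the retinal pigment epithelium, Il11 a cytokine, Tssk2 a kinase of the testis and Terb2 a meiotic telomere protein, whereas Rps2 is a ribosomal protein and Ccnt1 the cyclin of the elongation factor P-TEFb. The missing peaks refer to the outermost annotated starts, not to every promoter of these genes. The other pairs of the 10 were partly open. Tbc1d16/Ccdc40, with a gene of motile cilia, had a peak of the larger set in both libraries and 100% and 98.6% of the bases between its starts listed. Kctd19/Lrrc36 had a peak of the larger set in 1 library, with 25.7% listed in replicate 1 and 0% in replicate 2. Rad51c/Tex14, a repair gene beside a gene of germ cell bridges, also had a larger-set peak in 1 library, with 100% and 0% listed.

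Pairs with a strict peak in only 1 library had low values. Rom1/Eml3 had 1.25 in replicate 1, Grik5/Zfp574 1.11, Tradd/Fbxl8 1.00, P3h4/Fkbp10 0.983 and Sox6/1110004F10Rik 0.764. Rom1 is a photoreceptor protein, Grik5 a kainate receptor subunit and Sox6 a transcription factor. At Tradd/Fbxl8 all bases between the starts were listed in replicate 1 and 60% in replicate 2, and at Rom1/Eml3 all and 31.5%. These intervals were thus partly open in replicate 2 as well, below the strict set. At Grik5/Zfp574 and P3h4/Fkbp10 no base between the starts was listed in either.

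Member peaks on X were lower than those on the autosomes. The 15 on X had median heights of 2.42 in replicate 1 and 1.79 in replicate 2, the 813 on autosomes 4.19 and 2.88. Single-gene peaks showed the same order, 1.56 and 1.06 for 329 on X against 2.96 and 1.99 for 8922. Males have 1 copy of X, and the part of copy number in this was not tested.

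As a check of the tissue, 5 of 6 pan-neuronal, 4 of 6 astrocyte, 3 of 6 excitatory, 3 of 6 oligodendrocyte, 2 of 6 endothelial and 1 of 6 inhibitory marker genes had a shared strict peak within 1000 bp of the gene's start, as had 0 of 6 liver, 0 of 6 Hox and 0 of 6 microglial genes. The inhibitory markers without one include Gad1 and Gad2, and the excitatory ones Slc17a7. One marker, the endothelial Pecam1, is in a divergent pair, with Milr1, and had no peak.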

How the data were processed

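DNase-seq peaks, listed bases and footprints of 2 cortex libraries were used as deposited. The authors made them library by library from filtered mm10 alignments, per the deposited text; the aligner and the peak and footprint callers are not named there. The deposited peak height is a signal of unstated scale; sequencing depth is unknown, so heights were compared within a library. The authors' listed bases carry a p-value-like false discovery rate (FDR) under 0.05, and deposited footprints a constant value of 0.01, read as their threshold. Gene starts came from GENCODE M21, and sequence from the mm10 reference. Peaks, motifs and composition were computed with Python 3.11.15, pandas 2.3.3, scipy 1.17.1, pysam 0.24.0 and samtools 1.23.1, and copies with BLAST+ 2.17.0+; the code passed 7 of 7 checks when tested on simulated data. Single-gene promoters served as comparison. With 1 group of 2 libraries there was no test. Named are the 10 tallest and 5 lowest pairs, the 5 widest peaks and the 5 with most footprints, classic pairs, the 10 closest pairs without a strict peak, the 5 tallest with a peak in 1 library, and up to 3 pairs per family; further pairs illustrate a statement and were chosen after their values were seen. Members and lists were chosen with earlier results of these data known. Alternatives covered the gene start, spacing, reach, peak set, height, overlap, comparison class, motif window and each library alone. Some pairs that the naming rule gives are not reported here.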

Additional observations from a re-analysis of the deposited data

How the results depend on the processing

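The number of member peaks ran from 710 to 880, and the share over 300 bp wide moved by less than its SD, under the alternatives run for them. The 710 came with starts of the longest coding transcript, where the rule gave 609 pairs instead of 754. Which genes form a pair thus depends on the start used. The share of pairs with a member peak was 90.1% with peaks that overlap the interval itself and 86.2% with peaks that cover at least 50% of each other. The height ratio to single-gene peaks was 1.51 with starts of the longest coding transcript, 1.49 with starts at most 500 bp apart, 1.52 with the interval itself, 1.65 with the larger peak sets, 1.30 with peaks at or above the library's median height, 1.36 with 50% overlap, 1.33 against CpG-rich peaks, and 1.48 to 1.58 with 1 library left out. The share with a footprint was 99.2% with the interval itself, 95.4% with the larger sets, 98.7% at or above the median height, and 95.3% to 96.4% with 1 library left out. Replicate overlap was 98.0% with the interval itself and 87.5% with 50% overlap, and cannot be computed from 1 library. The median CpG observed over expected, in the same order of transcript start, 500 bp, interval itself, larger sets, median height and 50% overlap, was 0.871, 0.886, 0.877, 0.861, 0.872 and 0.871, and 0.858 to 0.871 with 1 library left out. The median offset of the tallest peak from the middle was 45.75, 36.375, 38.5, 42, 40.5 and 40.25 bp in that order, and 40.5 to 42.5 bp with 1 library left out. Of 13 motifs, 9 were more frequent in member peaks, and 8 when the whole peak was searched or against CpG-rich peaks. The ratio of shares turned for CRE, 0.926 against CpG-rich peaks, for RFX, 0.994 with the whole peak searched, and for SP, 0.967 to 1.00053 with 1 library left out. The comparison class does not enter the wide, footprint and CpG values. The cause of these changes was not tested. No paired analysis was possible because there is 1 group and no result comes from a test. Depth is unknown, so a missing peak does not show closed chromatin.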

Other observations

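Head-to-head coding genes whose bodies overlap at the starts fall outside the rule and include classic pairs such as Hspd1/Hspe1, the mitochondrial chaperonins. There were 446 such pairs, with a median overlap of 322.5 bp, and 402 (90.1%) had a shared strict peak. Their 542 peaks had median heights of 3.43 in replicate 1 and 2.30 in replicate 2, below the 4.11 and 2.86 of member peaks. Over 300 bp wide were 28.0% and 33.2%, and a footprint was present in 96.1% and 93.4%. The median CpG observed over expected was 0.875. No test was made of these differences.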
